A study of Mus musculus with 6 samples.

Results

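Barcodes in which 20 to 40% of the captured transcripts were mitochondrial made up a large share of the ileal crypt libraries and are described here. A barcode marks 1 droplet. Each transcript caught in it carries a unique molecular identifier (UMI), so UMIs count molecules. Members were selected on measured values, namely at least 1000 UMIs, at least 500 genes, and more than 20 but at most 40% of UMIs in the 13 genes whose symbols start with mt-. They numbered 39681 of the 83002 barcodes that reached the same floors of UMIs and genes, or 47.8%. Of the others, 17104 lay at or under 20% and 26217 over 40%.

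The series held epithelial cells of mouse ileal crypts, dissociated with TrypLE, sorted for the surface protein EpCAM and loaded on the MobiNova-100 droplet platform. There were 3 libraries from Fpr2f/f mice, whose Fpr2 gene carries recombination sites and which the labels call WT, and 3 from Fpr2VKO mice, in which Cre under the Villin promoter deletes Fpr2 in intestinal epithelium. The groups were adult C57BL/6J mice matched for age and sex. The number of libraries per group equals the number of mice that the study's legends give, while the labels name no animal for a library. The plots name the groups Fpr2_ff and Fpr2_VKO. Fpr2 encodes a receptor for formyl peptides, which bacteria and mitochondria release. Cre driven by Villin acts in epithelium and leaves Fpr2 in place in the immune and stromal cells that a sort can carry along.

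The mitochondrial genome encodes 13 proteins of the respiratory chain, and their messenger RNAs stay inside the organelle. Cytoplasmic RNA leaves a cell whose membrane is broken sooner than mitochondrial RNA does, and absorptive and secretory gut cells also differ in how many mitochondria they hold. The first is why the mitochondrial share is a common filter on single cells, and the second makes that share harder to read. Crypts hold Lgr5+ stem cells, dividing transit-amplifying (TA) cells, and the enterocyte, goblet, Paneth, enteroendocrine and tuft lineages, each with its own marker transcripts. Expression below is given as CPM, counts per 1000000, here the UMIs of a gene for every 1000000 UMIs of all genes other than mt- genes, which are called nuclear UMIs.

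The libraries held 90142126 to 189516114 UMIs over all barcodes. Fpr2VKO libraries 1 and 3 stood apart. In library 1 the bin at 37.5 to 40% mitochondrial UMIs held 15.5% of the kept barcodes, and in library 3 the bin at 30 to 32.5% held 15.9%, whereas the fullest bin of any other library held 5.29 to 6.44%. Barcodes with fewer than 100 UMIs, used here as a measure of RNA outside cells (free RNA), had 42.4 to 52.2% mitochondrial UMIs. The barcode sequences of the members also overlapped between libraries. Within 2 sets (Fpr2f/f 1 and 2 with Fpr2VKO 1 and 2, and Fpr2f/f 3 with Fpr2VKO 3), the 7 pairs of libraries shared 4.21 to 6.58 times as many member barcodes as independent draws would give, and the 8 pairs across the sets 0.533 to 1.08 times as many. In all, 812 of the 38861 distinct member sequences (2.09%) occurred in at least 2 libraries. Why was not tested.

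The target gene gave no reading of the knockout among the members. Fpr2 had 0 UMIs in all 6 libraries, which allows up to 0.106 to 0.216 CPM per library (3 counts). Fpr1 had 10 UMIs, and Fpr3, a neighbour in the same receptor family, had 87 UMIs, 5 to 23 per library.

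The share of kept barcodes that fell in the 20 to 40% range did not differ detectably between genotypes. It was 47.0, 45.6 and 46.0% in the Fpr2f/f libraries (46.2% ± 0.74, SD, n = 3) and 44.6, 38.5 and 66.1% in the Fpr2VKO libraries (49.7% ± 14.5). The Fpr2f/f libraries lay close together, and Fpr2VKO lay on both sides of them. The difference of 3.51 percentage points had p = 1.0 (exact two-sided permutation test over libraries, which cannot go below 0.1 with 3 against 3). It rested on Fpr2VKO 3, since it was −4.68 points without that library and −7.75 points without Fpr2VKO 1 and 3. Within the first set of libraries that share barcodes both Fpr2VKO values lay below both Fpr2f/f values, and in the second set the Fpr2VKO value lay above. Neither part of the range passed the test. Barcodes at 20 to 30% formed 23.7% of the Fpr2f/f and 17.3% of the Fpr2VKO barcodes (difference −6.42 points, exact permutation p = 0.1, groups not overlapping), and those at 30 to 40% formed 22.5 and 32.5% (exact permutation p = 0.4). In the upper part Fpr2f/f had 23.2, 21 and 23.4% and Fpr2VKO 31.5, 20.5 and 45.4%, so the groups overlapped. Of the members themselves, 49.2, 46.2 and 50.8% were over 30% in Fpr2f/f, against 70.6, 53.2 and 68.7% in Fpr2VKO.

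**Figure D1:**
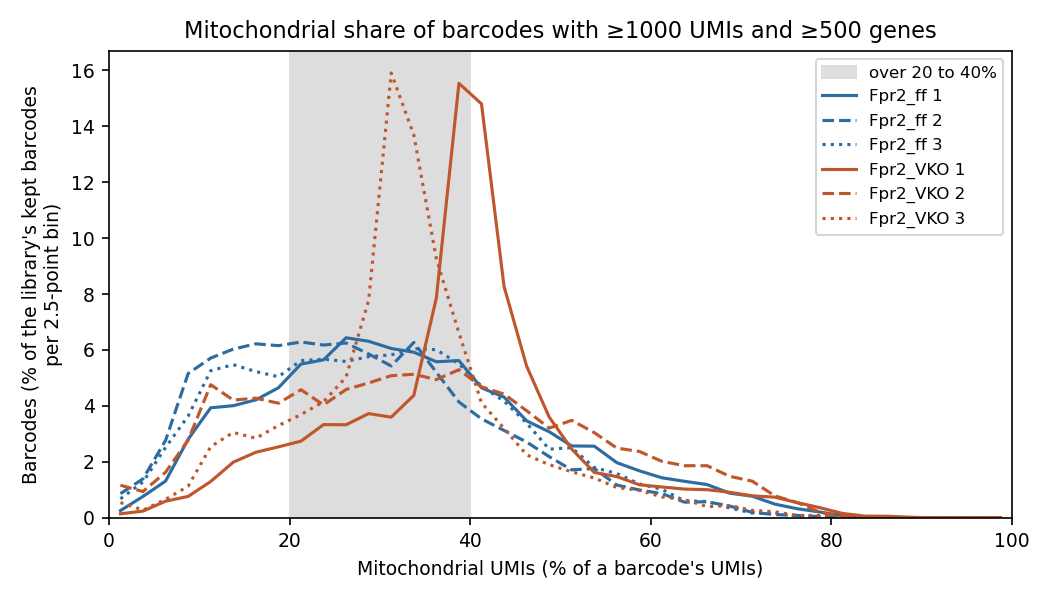
Share of each library's kept barcodes (y axis, percent per 2.5-point bin) by the percent of UMIs that were mitochondrial (x axis), with 1 line per library and the 20 to 40% range shaded. Fpr2VKO libraries 1 and 3 have peaks of 15.5 and 15.9% inside the shaded range, and no bin of the others exceeds 6.44%.

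The members held little nuclear RNA per barcode. As the floors on UMIs and genes and the mitochondrial share chose them, these values are a description without a test. The median of nuclear UMIs per member was 1573, 2697 and 2434 in the Fpr2f/f and 1707, 2302 and 1404 in the Fpr2VKO libraries. Among barcodes at or under 20% it was 2591, 3980, 4021, 5450, 5835 and 5728 in the same order, so the members were lower in 6 of 6 libraries (mean log2 ratio −1.18, SD 0.60). The ratio was largest in Fpr2VKO 3 (−2.03) and smallest in Fpr2f/f 2 (−0.56). The change was gradual at both limits of the range: taking the median in each library and then the median of the 6 library values, barcodes at 19 to 20% (n = 1360) and 20 to 21% (n = 1414) had 3136 and 2908 nuclear UMIs, and those at 39 to 40% (n = 2669) and 40 to 41% (n = 2543) had 1809 and 1823. At the upper limit Fpr2VKO 1 gave 1526 and 1506 of these barcodes, with its own medians at 834 and 813, the lowest of the 6 libraries. In bulk sums over such barcodes, fewer cells of a type and less RNA per cell cannot be told apart.

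Nearly every member carried transcripts of general epithelial genes. To compare barcodes of unequal depth, each was thinned at random to 600 nuclear UMIs, which no barcode failed to reach. At that depth 98.0% of the members (97.4 to 98.6% across libraries) and 93.5% of the barcodes at or under 20% held at least 1 UMI of a list of 10 epithelial markers. Draws of 600 UMIs from the free RNA gave 98.1 to 99.0%, so presence of the list does not separate a cell from free RNA. Single markers did so in part. Epcam, the surface protein on which the cells were sorted, was found in 62.0% of thinned members (57.0 to 67.3%), 59.5% of the barcodes at or under 20% and 51.4 to 54.3% of the free RNA draws, and the members exceeded their own library's free RNA in 6 of 6 libraries. Without thinning, Epcam was in 88.5% of members and 95.7% of the barcodes at or under 20%. The adherens junction gene Cdh1 (24.9% of members, free RNA 20.7 to 25.3%), the keratin Krt20 of differentiated cells (15%, free RNA 9.94 to 15.9%) and the intestinal transcription factor Cdx1 (9.60%, free RNA 7.54 to 9.42%) also exceeded their library's free RNA in 6 of 6.

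Other epithelial markers were at or near the level of the free RNA. Vil1, which encodes the brush border protein villin, was in 30.9% of members and exceeded the free RNA in 5 of 6 libraries, as did the tight junction gene Cldn7 (38.3%). Krt8 (53.3%), Krt18 (26.4%), Krt19 (52.7%) and Cdx2 (3.38%) exceeded it in 0 of 6 libraries. At or under 20% they stood at 52.3, 24.4, 41.9 and 3.32% in the same order. The part of free RNA in these shares was not tested. By the share of thinned barcodes, each list of lineage markers was also at or below free RNA in all 6 libraries. Free RNA mixes transcripts of all lineages, whereas a cell holds mainly those of its own, so these shares cannot tell cells from free RNA. Barcodes at or under 20% also lay below the draws on average. They had 63.4% for the Paneth list, 49.4% goblet, 54.2% enterocyte, 33.3% stem, 9.54% enteroendocrine and 57.5% TA. For the tuft list they had 2.53 to 3.53% across libraries. The Paneth list was found in 81.0% of members against 99.1 to 100% of draws, the goblet list in 65.3% against 99.6 to 100%, the enterocyte list in 68.9% against 81.0 to 94.0%, the stem list in 40.7% against 39.5 to 67.0%, the enteroendocrine list in 15% against 31.1 to 63.4%, the TA list in 64.4% against 61.1 to 74.1% and the tuft list in 2.93% against 3.62 to 5.28%. By summed level, however, the TA list was above its library's free RNA in 6 of 6 libraries (2112 to 2815 CPM in members, 1574 to 2247 CPM in free RNA), the general epithelial list in 5 of 6, the enterocyte and tuft lists in 3 of 6 each and the stem list in 2 of 6. The Paneth, goblet and enteroendocrine lists were above it in 0 of 6. Ptprc, the leukocyte marker CD45, was in 0.40% of members and 1.46% of the barcodes at or under 20%. Cd3e of T lymphocytes was in 0.23 and 0.89%. The whole T lymphocyte list went the other way, with 5.79 and 3.56%, and was higher in members in 5 of 6 libraries. Draws of free RNA gave 19.7 to 52.5% for that list.

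**Figure D2:**
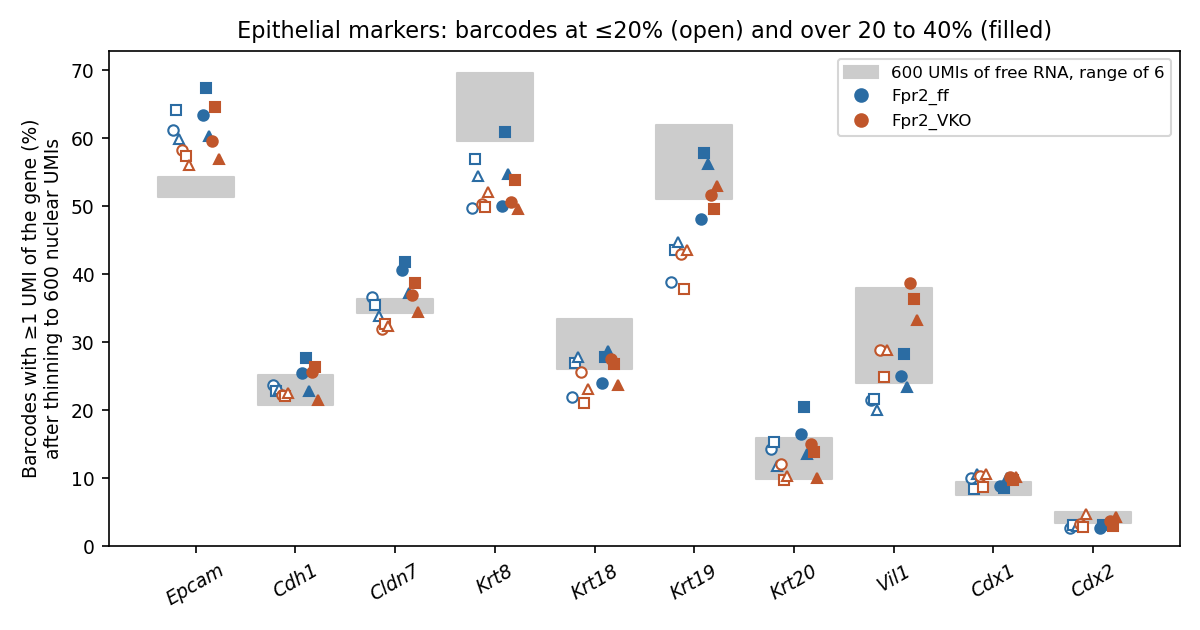
Share of barcodes with at least 1 UMI of each epithelial marker after thinning to 600 nuclear UMIs (y axis, percent), with 1 point per library, filled for 20 to 40% and open for at most 20% mitochondrial UMIs. Grey bars span the 6 free RNA draws: Epcam in members (57.0 to 67.3%) lies above its bar (51.4 to 54.3%), and Krt8 lies below or within.

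Clustering on nuclear genes placed the members in every epithelial class. All 56785 barcodes at or under 40% were clustered together without mt- genes, and clusters were named "X-like" from marker lists. Of the members, 5271 were enterocyte-like, 2813 stem-like, 2621 goblet-like, 2547 TA-like, 2237 enteroendocrine-like, 1771 Paneth-like, 618 T lymphocyte-like and 424 tuft-like, while 13442 fell in unnamed clusters. A further 7937 lay in the cluster whose summed profile was nearest to the free RNA, which is kept apart here. As the marker lists named the classes, their levels are a description. Per 600 nuclear UMIs, goblet-like members held 23.4 UMIs of the goblet list (0.6 to 7.0 in the other classes), and Paneth-like members held 65.2 of the Paneth list, next to 18.7 in the cluster nearest to free RNA and 14.6 in T lymphocyte-like members.

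Of the 8272 barcodes in the cluster nearest to free RNA, 7937 (96.0%) were members. Its leading genes were Lyz1 (lysozyme), Ang4 and Itln1 of Paneth cells and the metallothionein Mt1. They were ranked over all libraries together, and Fpr2VKO 1 and 3 gave 2556 and 3469 of these barcodes. Mt1 also differed by genotype, with means of 540 CPM in Fpr2f/f and 1821 CPM in Fpr2VKO members of the cluster. Enterocyte-like members had 301 and 2381 CPM. The part of genotype in the rank of Mt1 was not tested. The members in this cluster had a median of 1448 UMIs. The cluster held 10.3, 9.67 and 9.15% of the members in Fpr2f/f and 24.8, 8.99 and 39.6% in Fpr2VKO, so the 2 libraries that stood apart held the most.

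Goblet-, Paneth-, tuft- and stem-like barcodes had lower mean shares among members than among barcodes at or under 20%, and no class passed the test after adjustment. With 6 libraries the exact sign-flip p cannot go below 0.031, so after adjustment classes can pass only when most of them reach that floor together. The count can therefore jump from none to most classes with a small change. In other settings, 8 of 10 classes passed with finer clusters (Leiden resolution 2) and at a floor of 2000 UMIs, and 7 with clusters after thinning and at 20 to 30% alone. Enteroendocrine-like barcodes, the other secretory class, were 5.14% ± 2.16 and 4.77% ± 1.35, higher in 3 of 6 libraries (exact permutation p = 0.66, adjusted p = 0.69). Goblet-like barcodes were 6.74% ± 1.66 of the members and 13.8% ± 1.13 of the barcodes at or under 20% (SD, n = 6 libraries). Stem-like barcodes were 7.63% ± 2.55 and 12.3% ± 2.65, Paneth-like 4.23% ± 2.37 and 6.63% ± 2.08, tuft-like 1.06% ± 0.13 and 2.32% ± 0.24, and T lymphocyte-like 1.32% ± 1.14 and 1.87% ± 1.01. Each of these was lower in the members in 6 of 6 libraries, and the cluster nearest to free RNA was higher in 6 of 6 (17.1% ± 12.6 against 1.93% ± 0.84). For each, an exact two-sided sign-flip permutation test over libraries gave p = 0.031, the smallest that 6 libraries allow, and an adjusted p of 0.052 over 10 classes (Benjamini-Hochberg). Enterocyte-like barcodes formed 13.7% ± 4.13 of the members and 9.41% ± 2.00 of the rest, higher in 5 of 6 libraries (exact permutation p = 0.0625, adjusted p = 0.089). TA-like barcodes were lower in 4 of 6 (6.92 against 9.53%, adjusted p = 0.156 by the same exact test). The TA-like difference turned to 3.75 points at matched depth and 2.00 points with coarser clusters (Leiden resolution 0.5), and the enterocyte-like one to −0.34 points without alignment of the libraries. In the 4 libraries other than Fpr2VKO 1 and 3, the differences had the same direction, with −6.80 points for goblet-like, −3.24 for stem-like, −2.53 for Paneth-like, −1.21 for tuft-like and 5.65 for enterocyte-like. The Paneth-like direction depended on the cluster nearest to free RNA, as counting it as Paneth-like turned −2.40 into 12.8 points.

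Over all depths, the clusters within a lineage differed widely in how many of their barcodes were members. Of the deep Paneth-like cluster led by Defa30 and Defa3 (n = 624, median 47645 UMIs), 4.81% were members, against 84.3% of the shallow one led by Defa5 (n = 1994, median 2289 UMIs). Among stem-like barcodes, members were 28.2% of the Olfm4-led cluster (n = 1348, median 22272 UMIs) and 69.6% of the Cdca7- and Lgr5-led cluster (n = 3495). The TA-like clusters gave 28.6% for the one led by Cps1 and Pclaf and 77.5% for the one led by the topoisomerase gene Top2a. The 3 enterocyte-like clusters had 62.1 to 83.2%, the 3 goblet-like 46.3 to 74.2%, the 3 enteroendocrine-like 69.0 to 81.1% and tuft-like 52.2%. Some unnamed clusters also had high shares, with 84.9% for the one led by the B cell genes Ebf1, Bank1 and Cd79a (n = 933) and 90.4% for one (n = 613) whose leading genes were Ighm and Jchain of plasma cells followed mostly by Paneth genes such as Defa21, Defa22 and Ang4. Median depth was lower in the cluster with more members in the Paneth-, stem- and TA-like classes, but not in goblet-like, whose clusters had medians of 3773, 4260 and 4396 UMIs beside 46.3, 55.8 and 74.2% members. At 2000 to 10000 nuclear UMIs, members were 61.5% of the Olfm4-led and 64.9% of the Cdca7- and Lgr5-led cluster. They were 68.2% of the Cps1-led and 76.8% of the Top2a-led cluster. The Paneth-like gap remained, with 14.3% of the Defa30-led and 69.8% of the Defa5-led cluster, and the goblet-like clusters had 44.1, 61.1 and 74.3%. Beyond these values, the part of depth was not tested.

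**Figure D3:**
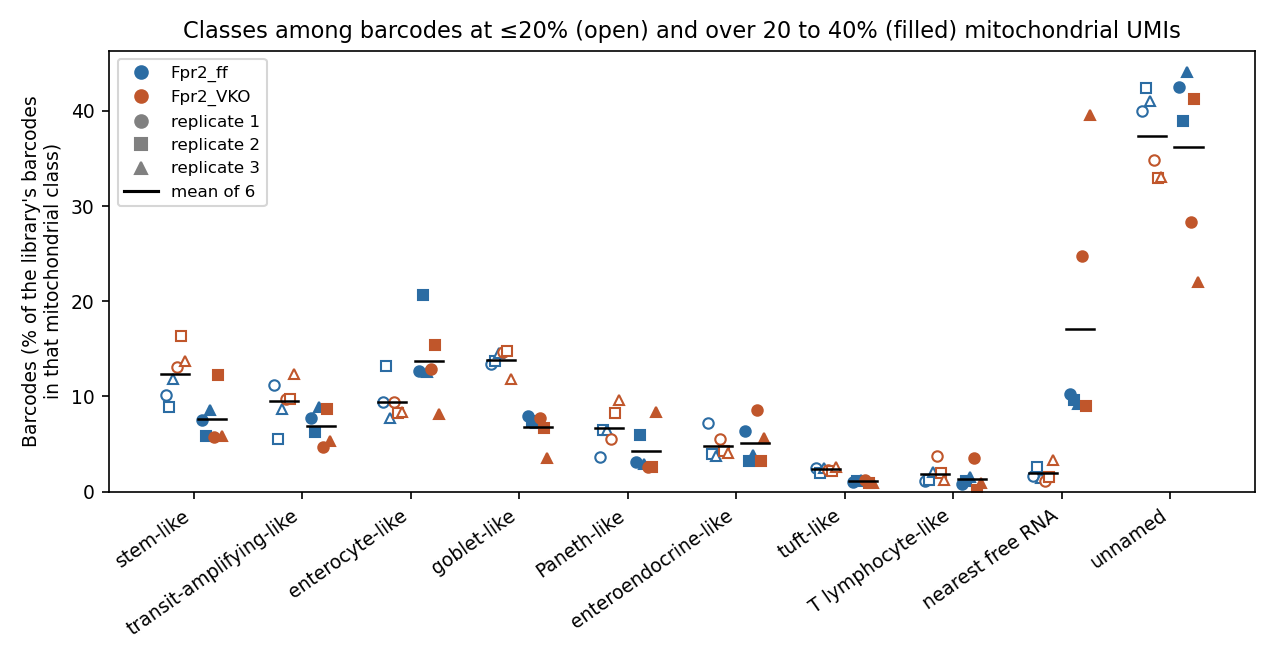
Share of each class (y axis, percent of the library's barcodes in that mitochondrial range) among barcodes at or under 20% (open points) and over 20 to 40% (filled points), 1 point per library, with the mean of the 6 libraries as a line. Goblet-like has means of 13.8 and 6.74%, and the cluster nearest to free RNA spreads from 8.99 to 39.6% among members.

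Nuclear gene expression was compared between members and barcodes at or under 20%, with UMIs summed per library, the library as a block, and edgeR's quasi-likelihood test. At an adjusted p under 0.05 (Benjamini-Hochberg), 13425 of 18740 genes (71.6%) were called, 6509 higher (34.7%) and 6916 lower (36.9%). These fold changes are relative to the median gene after TMM scaling, a normalization that ignores the genes with extreme ratios. In CPM the median gene was itself 0.34 higher on the log2 scale in members (0.28 to 0.38 across libraries), and with scaling by total nuclear UMIs the calls were 11848 higher and 2955 lower. Because depth differed, the test was repeated on barcodes of 2000 to 10000 nuclear UMIs in both ranges. At that matched depth 4989 of 15349 genes (32.5%) were called, 2371 higher (15.4%) and 2618 lower (17.1%). Log2 fold changes below compare members with barcodes at or under 20% on the TMM scale, and each list is read against these background shares.

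Over all depths, Paneth transcripts were the furthest lower of the marker lists in the summed UMIs, in which deep barcodes weigh more. At matched depth the T lymphocyte and enteroendocrine lists were further lower. By the share of thinned barcodes the direction was the other one. The Paneth list was found in 81.0% of members and 63.4% of barcodes at or under 20%, and Lyz1 in 45.9 and 26.0%. Both were higher in members in 6 of 6 libraries. Defa30, an antimicrobial defensin, had 671, 1419 and 574 CPM in Fpr2f/f and 1027, 1292 and 2421 CPM in Fpr2VKO members, against 5851 to 23574 CPM in the 6 sums at or under 20%. Every member sum lay below every sum at or under 20%. The log2 fold change was −4.07 (SE 0.29, edgeR adjusted p = 6.9e-05), and −1.84 at matched depth. Lyz1 fell by 3.26 on the log2 scale (SE 0.30, edgeR adjusted p = 0.00023; matched depth −1.84). The 12 lower genes picked by size were 7 Defa genes, Mptx2, AY761184 and 3 predicted genes. Defa3 stood at −4.25, Defa5 at −4.14 and Defa17 at −4.04, and the Paneth lectin-like gene Mptx2 (−3.95) was no longer called at matched depth (adjusted p = 0.058). Defensin genes are near-identical copies, so counts of single members of that family are uncertain. All 9 genes of the Paneth list were lower (median −3.75), and 8 of 9 at matched depth (median −1.80).

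The other secretory lineages and leukocyte markers were also lower in the summed UMIs. By the share of thinned barcodes, the goblet list was higher in members in 6 of 6 libraries (65.3 against 49.4%). The enteroendocrine (15 against 9.54%) and T lymphocyte lists (5.79 against 3.56%) were higher in 5 of 6. Of single genes, Muc2 and Chga were higher in 2 of 6 libraries, and Ptprc and Cd3e in 0 of 6. In the sums the goblet list fell in 9 of 9 genes (median −1.99, matched depth −1.57 with 9 of 9). Muc2, the main intestinal mucin, had 340, 283, 262, 383, 291 and 264 CPM in members in library order and 724 to 1108 CPM at or under 20%, without overlap (log2 fold change −1.99, SE 0.15, edgeR adjusted p = 6.3e-05). The trefoil peptide gene Tff3 fell by 1.68 on the log2 scale. Of the enteroendocrine list 10 of 10 tested genes were lower (median −2.38, matched −2.27), with −2.37 for Chga and −2.63 for Chgb, both of which encode granins of hormone granules. The T lymphocyte list was lower in 9 of 10 (median −2.50) and in 10 of 10 at matched depth (median −4.28). Ptprc fell by 2.48 and the granzyme gene Gzma by 2.72. The summed T lymphocyte list ran from 53 to 294 CPM in members and from 249 to 1229 CPM at or under 20%. The tuft list had a median of 0.05 with 1 of 8 lower, but −1.03 with 7 of 8 lower at matched depth, and with scaling by total UMIs 5 of 8 were higher and 0 lower. Markers of other cells had low summed levels: the stromal list had 9.4 to 29.0 CPM in members, the myeloid list 21.7 to 34.0, the endothelial list 5.4 to 9.0 and the B and plasma cell list 4.39 to 69.2 CPM, the highest in Fpr2VKO 3.

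In the sums, stem cell genes were lower over all depths, and few were at matched depth. By the share of thinned barcodes, Olfm4 was higher in members in 6 of 6 libraries (25.1 against 18.3%) and Lgr5 in 1 of 6 (1.78 against 2.01%). Of the 10 stem genes, 9 were lower (median −0.72), and 3 at matched depth (median −0.17). Olfm4, a secreted glycoprotein of crypt base stem cells, had 450, 322 and 480 CPM in Fpr2f/f and 838, 897 and 1012 CPM in Fpr2VKO members, against 675 to 1975 CPM at or under 20%. The log2 fold change was −1.46 (SE 0.05, edgeR adjusted p = 6.5e-19), and it was −0.18 and not called at matched depth (adjusted p = 0.36). Lgr5, the receptor that defines these stem cells, fell by 0.78 on the log2 scale, and by 0.21 at matched depth (edgeR adjusted p = 0.029). Of the 12 TA genes 9 were lower and 2 higher (median −0.45; matched depth 0.02 with 2 each way). The proliferation marker Mki67 was among the higher, with 221 to 253 CPM in members and 113 to 151 CPM at or under 20% (log2 fold change 0.44, matched 0.24).

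Enterocyte genes moved both ways. Of 14, 6 were higher and 4 lower (median −0.06), and at matched depth 7 were higher and 1 lower (median 0.34). Mttp, which loads lipid onto chylomicrons, had 291 to 353 CPM in members and 168 to 216 CPM at or under 20% (log2 fold change 0.32, matched 0.71). The glucose transporter gene Slc5a1 (0.37, matched 0.53) and the brush border peptidase gene Anpep (0.54, matched 0.47) were also higher. Fabp6, the ileal bile acid binding protein, was lower (−1.08, matched −1.40). Of the 10 general epithelial markers 3 were higher and 5 lower (median −0.08), and with scaling by total UMIs 8 were higher and 1 lower, so no direction is given for the list. Vil1 (0.27) and Krt19 (0.22) were higher under both scalings and at matched depth (0.30 and 0.27). Without the library as a block in the edgeR fit, the calls of Vil1, Krt19 and Fabp6 were lost (adjusted p = 0.11, 0.080 and 0.10).

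**Figure D4:**
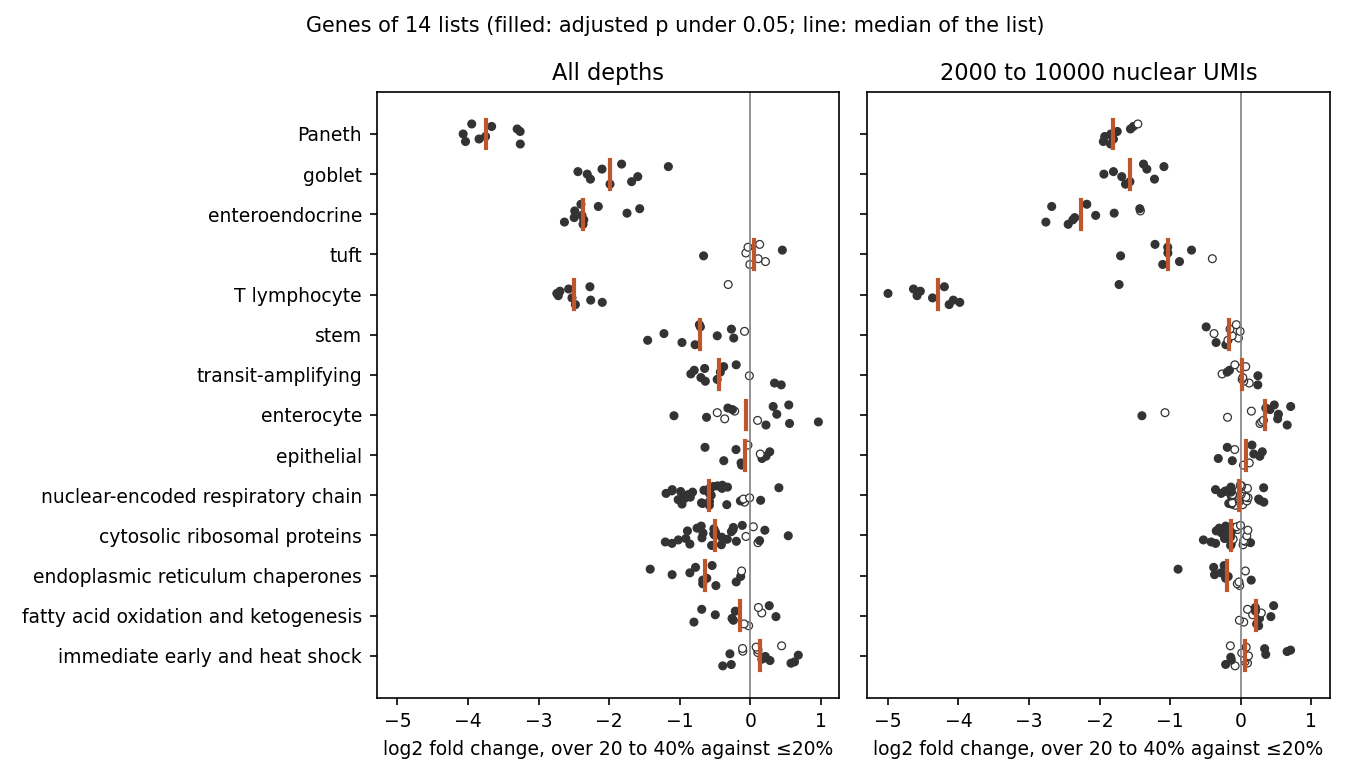
Log2 fold change of each gene in 14 lists, members against barcodes at or under 20% (x axis), over all depths (left) and at 2000 to 10000 nuclear UMIs (right), with filled points for an adjusted p under 0.05 and a line at the list's median. The Paneth median moves from −3.75 to −1.80 and the respiratory chain median from −0.58 to −0.02.

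Most nuclear genes whose products share the respiratory chain with those of the mt- genes were lower in members over all depths. Of 34 such genes 33 were tested, and 28 were lower and 2 higher (median −0.58). Cox5a, a subunit of cytochrome c oxidase, had 541, 383, 401, 528, 604 and 605 CPM in members and 689 to 1095 CPM at or under 20%, without overlap (log2 fold change −1.20, SE 0.05, edgeR adjusted p = 1.1e-17). Cox8a fell by 1.11 and Ndufa4 by 0.97 on the log2 scale. At matched depth 9 were lower and 4 higher with a median of −0.02, and Cox5a was still lower (−0.28). With scaling by total UMIs, 20 were lower and 6 higher over all depths.

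On the TMM scale, most transcripts for protein synthesis were lower in members, by less at matched depth. Of 30 cytosolic ribosomal protein genes, 24 were lower and 3 higher (median −0.50). At matched depth 20 were lower and 1 higher (median −0.14), while scaling by total UMIs gave 10 lower and 11 higher over all depths. The summed ribosomal list had a mean of 55390 CPM in members and 52510 CPM at or under 20%. It was higher in members of every library except Fpr2f/f 1. At matched depth the means were 56113 and 56611 CPM, so the direction for this list depends on scaling and depth. Rpl10 fell by 1.21 (matched 0.42) and Rpl7 by 1.11 (matched 0.36) on the log2 scale. Of 12 endoplasmic reticulum chaperones 11 were lower (median −0.65; matched −0.20, with 7 lower and 1 higher), with −1.42 for Sdf2l1 and −1.11 for Pdia6. Of 14 antioxidant genes 9 were lower and 1 higher (median −0.58), but at matched depth 1 was lower and 6 higher (median 0.01). Txn1 (−0.93) was still lower at matched depth (−0.14), and Prdx1 (−0.96) was no longer called (adjusted p = 0.16).

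Other metabolic and stress lists moved both ways. Of 12 genes of fatty acid oxidation and ketogenesis, 2 were higher and 6 lower (median −0.15), whereas at matched depth 7 were higher and 0 lower (median 0.22). Hadha, of the mitochondrial trifunctional protein, had 193 to 269 CPM in members and 122 to 137 CPM at or under 20% (log2 fold change 0.36, matched 0.43), and the lipid sensor gene Ppara also rose (0.27, matched 0.47). Of 14 genes for mitochondrial gene expression 4 were higher and 6 lower (median −0.03), with Tufm, the organelle's translation elongation factor, higher at 0.59 (matched 0.45). Of 16 immediate early and heat shock genes 7 were higher and 3 lower (median 0.13), and of 15 tested at matched depth 4 were higher and 3 lower (median 0.06). The summed list ran from 4837 to 6239 CPM in members and from 3390 to 4577 CPM at or under 20%, without overlap. At matched depth its means were 5953 and 5360 CPM. Jun and Junb, which dissociation is known to induce, were higher by 0.57 and 0.62 and were not called at matched depth (0.10 and 0.06). The nuclear-retained RNA Malat1 was higher by 0.65 over all depths and stood at −0.00 at matched depth (adjusted p = 0.97). The lists for apoptosis and p53 (median −0.25), mitochondrial unfolded protein and integrated stress (−0.27), biogenesis and turnover of mitochondria (0.01), metallothioneins and zinc transport (−0.39) and glycolysis (−0.02) had called genes in both directions. In that order, their summed means were 760, 1514, 879, 1171 and 2889 CPM in members. At or under 20% they were 667, 1648, 651, 984 and 2446 CPM.

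The higher genes picked by size were led by Pou3f1, a transcription factor gene known mainly from the nervous system (1.67, matched 0.60). They included Tex14, with 729 ± 219 CPM in members and 202 ± 108 CPM at or under 20% (1.52, matched 0.36), Edn1, the vasoconstrictor endothelin, with 356 ± 111 and 107 ± 38.5 CPM (1.32, matched 0.53), and Celf2, an RNA-binding protein gene, with 5755 and 1750 CPM (1.47). Celf2 was not called at matched depth (0.20, adjusted p = 0.060). The stress kinase gene Plk3 (1.26), the RNA component of RNase MRP (Rmrp, 1.32), the translational activator of cytochrome c oxidase Taco1 (1.24) and 5 predicted or uncharacterized genes completed the 12. The free RNA also held these transcripts, at a mean of 608 CPM for Tex14, 265 for Edn1 and 4779 for Celf2, and its part in the difference was not tested.

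Within single classes the respiratory chain list was lower in enterocyte-like members (31 of 33 genes, median −0.70, against 25.6% of all genes lower), goblet-like (25 of 33, median −0.33, against 28%), stem-like (22 of 33, median −0.36, against 27.6%) and TA-like members (29 of 33, median −0.67, against 31.2%). It was also lower in unnamed members (31 of 33, median −0.78, against 31.2%), in the cluster nearest to free RNA (23 of 33, median −0.59, against 8.74%) and in tuft-like members (15 of 33, median −0.38, against 4.08%). In Paneth-like members 18 of 33 were higher (median 0.30, against 25.2% of all genes higher), and in enteroendocrine-like members 20 of 33 (median 0.33, against 29.6%). The median gene of each of these classes stood at 0.01 to 0.07. Depth was not matched here: median UMIs of members and of barcodes at or under 20% were 3488 and 3658 in enterocyte-like and 3514 and 4781 in goblet-like barcodes. They were 3627 and 6501 in stem-like, 8360 and 19184 in TA-like, 2209 and 16745 in Paneth-like and 1721 and 8460 in enteroendocrine-like barcodes. The deep Defa30-led cluster holds much of the Paneth-like class at or under 20% and only 30 of its members, the Olfm4-led cluster differs likewise among stem-like and the Cps1-led cluster among TA-like barcodes, so these comparisons set unlike clusters against each other. Clusters of the other classes differed in their share of members as well. Among enterocyte-like clusters, the deepest, led by Fabp1 and Apoa1 (median 8775 UMIs), had 62.1% members. The others had 77.7 and 83.2%. Goblet-like clusters also differed, as given above, and the unnamed class joins many clusters. The Paneth list was lower in Paneth-like members (9 of 9, median −4.09, against 25.5% of all genes lower). It was higher in 9 of 9 genes in enterocyte-like (median 1.33, against 26% of all genes higher), stem-like (1.63, against 29.3%), TA-like (1.09, against 34.9%) and unnamed members (1.10, against 31.9%). In enteroendocrine-like members 8 of 9 were higher (2.64) and in tuft-like 7 of 9 (0.92, against 3.81%). Goblet-like members differed, with 3 of 9 higher and 1 lower (median 0.17, against 27.9%), and the cluster nearest to free RNA had 5 of 9 higher (0.48, against 4.59%). Other lists moved too. The goblet list was higher in 8 of 8 genes in enterocyte-like members (median 0.87). It was higher in 7 of 8 in stem-like (1.16), 8 of 9 in TA-like (0.82) and 0 of 8 in enteroendocrine-like members. A class's own list was lower in enterocyte-like (10 of 14), goblet-like (9 of 9), TA-like (8 of 12) and stem-like members (5 of 10). In enteroendocrine-like it was 10 of 10 (2915 of all 10424 genes were lower), and in tuft-like 1 of 8. Free RNA held 7807 to 50399 CPM of the summed Paneth list, and the part of free RNA in these values was not tested.

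The rule used the sum of the mt- transcripts, not how that sum was divided among them. None of the 13 shares passed the test after adjustment over 13. The exact p has the same floor here, so shares can pass only when most of them reach it together. Mt-Co1, a core subunit of cytochrome c oxidase, formed 13.8, 14 and 13.9% of mitochondrial UMIs in Fpr2f/f and 12, 13.6 and 12.2% in Fpr2VKO members (13.2% ± 0.91), against 15% ± 0.44 at or under 20%. It was lower in 6 of 6 libraries (exact sign-flip permutation p = 0.031, adjusted p = 0.068). Mt-Nd6, the only one of the 13 encoded on the light strand, was also lower in 6 of 6 (0.044 against 0.071%), and mt-Atp6 (21.9 against 21%), mt-Nd1 (7.69 against 7.55%), mt-Nd2 (3.33 against 3.02%) and mt-Nd3 (2.06 against 1.99%) were higher in 6 of 6, with the same exact p. At matched depth mt-Nd6 kept its direction (−0.036 points), and the other 5 turned: mt-Co1 was 0.20 points higher and mt-Atp6 0.24, mt-Nd1 0.10, mt-Nd2 0.10 and mt-Nd3 0.0018 points lower. Free RNA had means of 11.6% mt-Co1, 23.7% mt-Atp6 and 0.035% mt-Nd6. Between genotypes the members' mt-Co1 (13.9% ± 0.095 and 12.6% ± 0.89) and mt-Atp6 shares (21.1 and 22.8%) did not overlap, but no share passed (exact permutation p = 0.1, the smallest possible, adjusted p = 0.59).

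Between genotypes, 7 of 17447 nuclear genes tested in the members (0.0401%) were called by edgeR's quasi-likelihood test, 5 higher and 2 lower in Fpr2VKO. This count depended on the fit, with 154 by DESeq2, 311 without a filter on low counts, 114 under a replicate block and 4 at 20 to 30% alone. With the set of libraries that share barcodes as a block, 88 genes were called. The count also moved with 1 library left out. It was 23 without Fpr2f/f 1, 24 without Fpr2VKO 2 and 13 without Fpr2VKO 3. The largest difference was in Mt1, which encodes the zinc-binding protein metallothionein 1 (GRCm38 chr8:94179082-94180327, plus strand). Members had 288, 269 and 396 CPM of Mt1 in Fpr2f/f and 1544, 1517 and 1664 CPM in Fpr2VKO libraries. The groups were far apart (log2 fold change 2.28, SE 0.14, edgeR adjusted p = 5.3e-07). The same separation was seen at or under 20% (321, 267 and 405 against 1259, 1234 and 1321 CPM) and in free RNA (287, 280 and 444 against 1811, 1852 and 2137 CPM). It held at matched depth among the members (2.32).

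Olfm4 (chr14:79984081-80023139, plus strand) was the other gene of the marker lists that was called. Its CPM in members, given above, did not overlap between genotypes (log2 fold change 1.10, SE 0.13, edgeR adjusted p = 0.0030; matched depth 1.06). At or under 20% it was 1024, 675 and 878 CPM in Fpr2f/f and 1975, 1772 and 1807 CPM in Fpr2VKO. Free RNA held 460 to 558 CPM in Fpr2f/f and 1144 to 1283 CPM in Fpr2VKO.

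The 3 other higher genes had low to moderate levels. Sorbs2 (chr8:45507788-45827906), a cytoskeletal adaptor gene, had 17.6, 16.7 and 18.0 CPM in Fpr2f/f and 31.1, 29.4 and 37.0 CPM in Fpr2VKO members (log2 fold change 0.86, SE 0.11, edgeR adjusted p = 0.0047). Rnase1 (chr14:51144998-51146785), a secreted ribonuclease gene, had 17.8, 20.4 and 18.8 against 32.3, 35.7 and 36.1 CPM (0.82, SE 0.12, adjusted p = 0.0096). Neither pair of groups overlapped. Rnase1 was not called at matched depth (adjusted p = 0.16) or at 20 to 30% alone (adjusted p = 0.13), and its levels at or under 20% overlapped between genotypes (67.8 to 124 and 106 to 191 CPM). Ifitm3 (chr7:141009586-141010770), an interferon-inducible membrane protein gene, had 48.5, 39.1 and 41.8 against 68.1, 74.8 and 76.7 CPM (0.73, SE 0.11, adjusted p = 0.018). It was not called at 20 to 30% alone (adjusted p = 0.13) or without Fpr2f/f 2 (0.051) or Fpr2f/f 3 (0.064).

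The lower genes were a non-coding RNA and a zinc finger gene. Gm48099, a lincRNA gene (chr14:19271274-19282822), had 63.2, 69.6 and 58.0 CPM in Fpr2f/f and 30.2, 25.5 and 31.9 CPM in Fpr2VKO members (log2 fold change −1.17, SE 0.12, edgeR adjusted p = 0.00031). Zfp949 (chr9:88548020-88571061) had 167, 241 and 216 against 112, 121 and 109 CPM (−0.91, SE 0.14, adjusted p = 0.029). Its call was lost at 20 to 30% alone (adjusted p = 0.060) and without Fpr2VKO 1 (0.13), Fpr2VKO 3 (0.072) or Fpr2f/f 3 (0.052). No gene of the other marker and pathway lists was called between genotypes, including those of the respiratory chain.

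**Figure D5:**
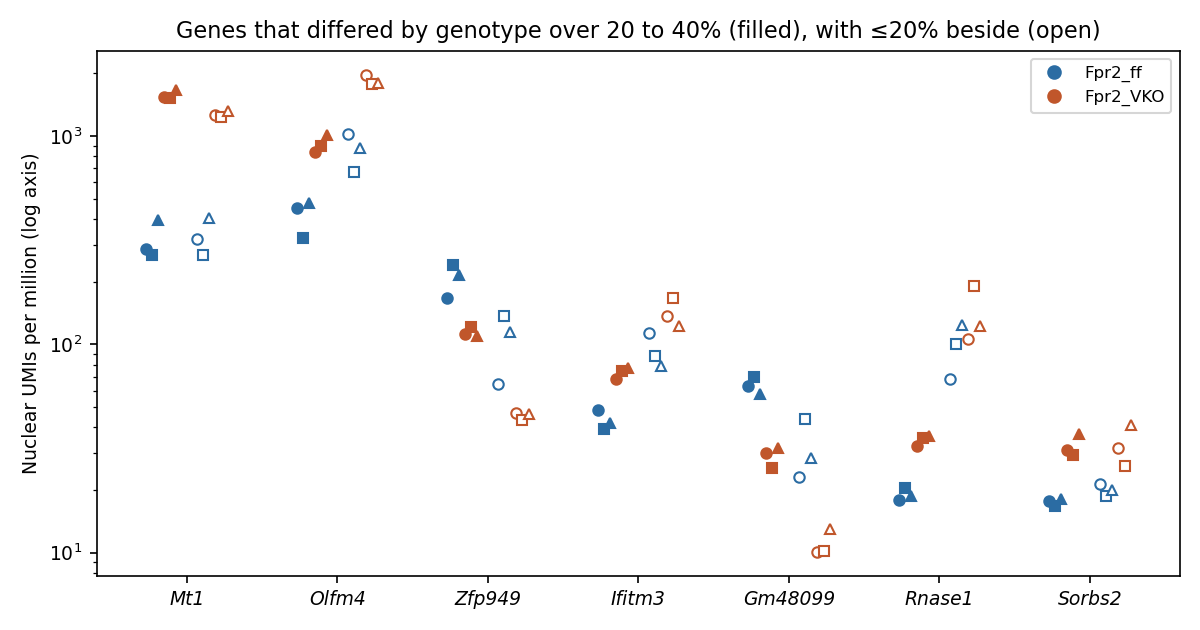
CPM of the 7 genes that differed by genotype among members (filled) and the same genes at or under 20% (open), 1 point per library on a log axis. Mt1 lies at 269 to 396 CPM in Fpr2_ff and 1517 to 1664 CPM in Fpr2_VKO members.

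Mt1 was higher in Fpr2VKO members of each of the 9 classes with at least 20 members in every library. The log2 fold change ran from 1.34 in stem-like (466 ± 95.1 against 1226 ± 64.2 CPM, edgeR adjusted p = 1.9e-08) to 2.92 in enterocyte-like members (301 ± 21.2 against 2381 ± 138 CPM, adjusted p = 3.4e-08). T lymphocyte-like members were too few for the test in 1 library, with 8 in Fpr2VKO 2. Free RNA itself held more Mt1 in Fpr2VKO, as given above, and its part in these class values was not tested. Olfm4 was called in 4 classes, enterocyte-like (log2 fold change 1.41), Paneth-like (1.24), nearest to free RNA (1.02) and stem-like (0.60, 2280 against 3575 CPM, adjusted p = 0.041). In unnamed, TA-like, goblet-like, tuft-like and enteroendocrine-like members its adjusted p was 0.055 to 0.78. Free RNA also held more Olfm4 in Fpr2VKO, as given above, and its part in these class values was not tested. The stem-like class joins the Olfm4-led cluster, with 29 to 35 members per library in Fpr2f/f and 72 to 110 in Fpr2VKO, and the Cdca7- and Lgr5-led cluster, with 331 to 396 against 396 to 517. The stem-like genotype values therefore rest on different mixtures of these clusters, and the part of that in them was not tested.

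Few genes were called per class, and the counts include Mt1 and Olfm4 where these were called. They were 5 of 10922 genes in enterocyte-like (0.0458%), 3 of 8114 in enteroendocrine-like (0.037%), 4 of 9713 in goblet-like (0.0412%), 7 of 6399 in Paneth-like (0.109%) and 3 of 4262 in tuft-like members (0.0704%). In the remaining classes they were 29 of 10169 in stem-like (0.285%), 39 of 11478 in TA-like (0.34%), 31 of 8631 nearest to free RNA (0.359%) and 15 of 13915 in unnamed members (0.108%). These counts depended on the fit. DESeq2 gave 101 in unnamed members, a replicate block gave 43 in goblet-like and 142 in TA-like members, and leaving out 1 library gave 2 to 33 in enterocyte-like members and 8 to 98 nearest to free RNA, the most without Fpr2f/f 1 and Fpr2VKO 2. In stem-like members the brush border genes Sis (35 against 76.7 CPM, log2 fold change 1.10) and Anpep (34.7 against 73.2 CPM, 1.05) were higher in Fpr2VKO. In tuft-like members the sialyltransferase gene St3gal4 (1316 against 535 CPM, −1.34) and Krt20 (−1.28) were lower. Trim30a and Afm were lower in Paneth-like (−1.99 and −2.25), enteroendocrine-like members (−2.19 and −1.88) and in the cluster nearest to free RNA (−2.36 and −2.48), and the hexokinase gene Hk2 was lower in enterocyte-like members (−0.89). Gm48099 was among the largest lower genes in 5 classes (enterocyte-, goblet-, stem- and TA-like and unnamed, −0.85 to −1.34).

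No class share of the members passed the exact permutation test between genotypes (adjusted p = 1.0 for all 10). The largest gap was in the cluster nearest to free RNA, at 9.70% ± 0.57 in Fpr2f/f and 24.5% ± 15.3 in Fpr2VKO (exact permutation p = 0.4), followed by unnamed clusters at 41.9 and 30.5%. The gap nearest to free RNA was 14.8 points, 7.19 without Fpr2VKO 3 and 22.5 without Fpr2VKO 2.

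Whether the genotype effect itself differed between members and barcodes at or under 20% was tested as an interaction. By edgeR's quasi-likelihood test 0 of 18740 genes passed (0%). Before adjustment 1058 had p under 0.05, and 1 gene passed with DESeq2. The count depended on the fit, with 53 under a replicate block, 26 without a filter on low counts and 1 to 26 with 1 library left out, the most without Fpr2f/f 3. For Mt1 the interaction was 0.29 (SE 0.09, adjusted p = 0.76) and for Olfm4 −0.06 (SE 0.11, adjusted p = 0.97), both on the log2 scale.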

How the data were processed

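Per the labels and the study's methods, droplets were sequenced from 6 libraries and the authors aligned reads to mm10 with MobiVision. Their notes also name Seurat 4.0 and 4.0.0. The deposited matrices held raw UMI counts for 32285 genes over all barcodes, before any cell filter.

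Barcodes were kept at 1000 UMIs and 500 genes and split by mitochondrial share. Those at or under 40% were clustered without mt- genes (2000 variable genes, 30 components, libraries aligned by mutual nearest neighbours, Leiden resolution 1, scanpy 1.11.5). Clusters took a class name from at least 3 detected markers with a mean log2 fold of 0.5. Doublets were scored (25% artificial doublets, 0.8% per 1000 barcodes marked) and kept. An alternative removed them. UMI counts were summed per library, mt- genes left out, and tested with edgeR 4.0.16 in R 4.3.3 (quasi-likelihood, TMM, filterByExpr, Benjamini-Hochberg), with DESeq2 1.42.0 as the alternative. Scripts were tested on simulated data. Intervals and floors cover counting error only. The study counts as many mice as libraries in each group, but the labels name no animal, so p-values measure the spread between libraries.

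Named genes were those of fixed lists, the 12 largest called changes each way (mean of at least 20 CPM, same direction in 6 libraries), up to 10 each way between genotypes without overlap, and up to 3 per class. List genes are given as examples. Members, lists and rules were chosen with earlier results of these data known.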

Additional observations from a re-analysis of the deposited data

Results flagged for a closer look

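Barcodes with more than 40% mitochondrial UMIs entered no expression comparison of the report and held a difference between genotypes in the same genes. Mt1 had a mean of 1659 CPM in the Fpr2VKO libraries against 259 ± 76.7 CPM in Fpr2f/f (SD, n = 3 each). Olfm4 had a mean of 671 CPM against 330 ± 53.7 CPM. Neither pair of groups overlapped. Gm48099 (58.7 in Fpr2f/f and 30.4 in Fpr2VKO), Zfp949 (236 and 137), Ifitm3 (28.4 and 51.9) and Rnase1 (14 and 26.0 CPM) also did not overlap in these barcodes, and Sorbs2 did. These differences were not tested. The 7 genes were picked for a difference between the same 6 libraries, so these values are no independent test of it. The share of all genes without overlap in these barcodes is not given.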

How the results depend on the processing

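The library share of the 20 to 40% range had no stable sign between genotypes: −6.42 points at 20 to 30% alone, −1.08 without the cluster nearest to free RNA, −7.75 without Fpr2VKO 1 and 3, and −4.68 to 9.15 with 1 library left out. Of the class shares compared with barcodes at or under 20%, 8 of 10 passed at Leiden resolution 2, 7 with clusters after thinning, 8 at 2000 UMIs and 7 at 20 to 30%. TA-like turned to 2.00 points at resolution 0.5 and 3.75 at matched depth, enterocyte-like to −0.34 without alignment, and Paneth-like to 12.8 with the cluster nearest to free RNA. Matched depth gave 4989 called genes, turned Malat1 to −0.0034, and turned mt-Nd1 (−0.10), mt-Nd2 (−0.10), mt-Co1 (0.20), mt-Atp6 (−0.24) and mt-Nd3 (−0.0018). Without the library as a block, the calls of Fabp6, Krt19 and Vil1 were lost (adjusted p = 0.10, 0.080 and 0.11).

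Calls between genotypes in members (7) became 154 with DESeq2, 311 without a filter on low counts, 88 with the barcode set as a block, 4 at 20 to 30% and 7 to 24 with 1 library left out. They were 23 without Fpr2f/f 1, 24 without Fpr2VKO 2 and 13 without Fpr2VKO 3. The interaction (0) became 1 with DESeq2, 6 scaled by total UMIs, 26 without a filter, 1 with the barcode set as a block, 2 at 20 to 30%, 2 at 30 to 40%, 1 at matched depth, 1 without doublets and 1 to 26 with 1 library left out. By class, DESeq2 gave 22 for enterocyte-like, 10 for goblet-like and 101 for unnamed members. Leaving out 1 library gave 2 to 33 for enterocyte-like, 1 to 13 enteroendocrine-like, 2 to 10 goblet-like, 8 to 98 nearest to free RNA, 4 to 14 Paneth-like, 10 to 37 stem-like, 17 to 74 TA-like, 2 to 5 tuft-like and 3 to 59 unnamed.

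With the shared replicate number as a replicate block, calls were 114 between genotypes and 53 for the interaction. By class they were 10 enteroendocrine-like, 43 goblet-like, 64 nearest to free RNA, 19 Paneth-like, 46 stem-like, 142 TA-like and 89 unnamed. The labels give the number no shared animal or day, and deviations of same-numbered libraries correlated at −0.10, 0.14 and 0.45 over 7099 genes, so the number was not taken as pairing. The cause of these shifts was not tested. Alternatives were added after seeing the data for the free RNA cluster, the barcode set, the 2 Fpr2VKO libraries that stood apart and scaling by total UMIs.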
